A study of Mus musculus with 4 samples.

Results

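RNA of 8 genes known best from myeloid cells (S100a8, S100a9, Il1b, Srgn, Spp1, Chil3, Lyz2 and Vim) was followed in alveolar epithelial nuclei of injured mouse lung, together with the open chromatin around each gene in the same nuclei. They are 8 of the 31053 genes counted, and they were chosen by their high RNA counts in alveolar nuclei of the knockout library. Their RNA level there, and its ratio to the control library, are therefore given as a description. Their chromatin was not used to choose them.

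Green (GFP+) cells, labelled as alveolar type 2 (AT2) cells, had been sorted from lungs of male mice 8 days into lung injury with bleomycin. The CKO mice carried SftpcCreERT2, Rosa26mTmG and IPF/F, a floxed allele of the prostaglandin I2 receptor, and the control mice carried SftpcCreERT2 and Rosa26mTmG. Both groups thus shared the inducible Cre, which is driven by the surfactant protein C gene and so acts in cells that express it, the reporter that turns green after recombination, and the bleomycin. The age of the mice, the number pooled and the dosing of the Cre inducer are not given in the sources used here. Nuclei were profiled by 10x multiome, which counts RNA molecules (unique molecular identifiers, UMIs) and transposition events in open chromatin peaks in the same nucleus. There was 1 joint library per genotype, so no difference has a replicate check, nothing was tested, and the 95% intervals given cover counting error only.

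The CKO library held 10925 barcodes with 30818808 UMIs and 37365247 peak counts, and the control library held 13569 barcodes with 48378328 UMIs and 47307986 peak counts. Of these, 3883 CKO and 2185 control nuclei were kept, and 193 barcode sequences occurred in both libraries (17 of them among kept nuclei). Clusters were built without the 8 genes and named from other markers. Alveolar nuclei (AT2-like, transitional-like, AT1-like and cycling epithelial) numbered 2333 in the CKO library (60.1% of kept nuclei) and 2062 in the control library (94.4%). Although the cells had been sorted as GFP+, myeloid-like nuclei made up 20.7% of kept CKO nuclei (480 neutrophil-like and 325 macrophage/monocyte-like) and 1.05% of control nuclei (1 and 22). T and NK cell-like nuclei numbered 350 in the CKO library and 60 in the control library. Ptgir, the gene deleted in the CKO mice, had 2 UMIs in CKO and 0 UMIs in control alveolar nuclei, so it could not check the labels. Of the 3 AT2-like clusters, one held 1149 CKO and 146 control nuclei, another 11 CKO and 763 control nuclei, and the third, of low depth, 33 CKO and 644 control nuclei. The rRNA-associated transcript Gm42418 took 6.08% of the UMIs of CKO and 13.3% of those of control alveolar nuclei.

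S100A8 and S100A9 pair to form calprotectin, an abundant calcium-binding protein of neutrophils that signals through TLR4 and RAGE once released. IL-1β is made as a precursor by activated neutrophils and macrophages and is cut by caspase-1, and serglycin is the proteoglycan that holds proteases in leukocyte granules. Chil3 (Ym1) is a chitinase-like lectin of mouse macrophages and neutrophils, Spp1 encodes osteopontin, a secreted ligand of integrins and CD44, and Lyz2 encodes lysozyme, which mouse AT2 cells make as well as macrophages. Vimentin is the intermediate filament protein of leukocytes and mesenchymal cells. In droplet assays, RNA freed from broken cells can be captured with any nucleus, whereas an open gene start in a nucleus belongs to that nucleus's own chromatin unless fragments of another nucleus share the droplet.

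The 200 bases before the RefSeq start of 5 of the genes are shown, because the chromatin results turn on whether these stretches lay in open chromatin of alveolar nuclei (RefSeq, build GRCm38.p6). They are chr3:90668871-90669070 on the plus strand for S100a8, chr3:90695722-90695921 on the minus strand for S100a9, chr2:129371140-129371339 on the minus strand for Il1b, chr10:117282273-117282472 on the minus strand for Lyz2 and chr2:13574111-13574310 on the plus strand for Vim. Capitals mark matches, on either strand, to GAGGAA (the core bound by the myeloid factor PU.1), TTGCNNAA (C/EBP), TGANTCA (AP-1) or TATAAA (the TATA box).
S100a8: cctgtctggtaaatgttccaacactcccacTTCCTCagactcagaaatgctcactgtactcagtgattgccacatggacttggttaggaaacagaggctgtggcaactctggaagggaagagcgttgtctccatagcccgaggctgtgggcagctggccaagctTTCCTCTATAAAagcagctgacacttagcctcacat
S100a9: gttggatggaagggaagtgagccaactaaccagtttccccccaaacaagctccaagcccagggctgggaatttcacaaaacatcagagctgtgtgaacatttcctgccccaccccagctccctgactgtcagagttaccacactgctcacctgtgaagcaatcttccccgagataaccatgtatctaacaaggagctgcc
Il1b: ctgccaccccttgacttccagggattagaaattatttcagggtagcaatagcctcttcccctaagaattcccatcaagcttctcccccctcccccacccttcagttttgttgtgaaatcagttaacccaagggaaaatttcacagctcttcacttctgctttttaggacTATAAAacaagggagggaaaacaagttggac
Lyz2: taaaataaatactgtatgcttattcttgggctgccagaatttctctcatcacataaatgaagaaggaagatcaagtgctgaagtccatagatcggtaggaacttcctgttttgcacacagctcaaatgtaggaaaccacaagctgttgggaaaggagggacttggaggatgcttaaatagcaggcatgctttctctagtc
Vim: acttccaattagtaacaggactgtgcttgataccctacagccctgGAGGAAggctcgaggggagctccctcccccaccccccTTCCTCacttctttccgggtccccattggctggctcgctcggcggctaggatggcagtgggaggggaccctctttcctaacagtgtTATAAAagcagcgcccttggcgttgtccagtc
The S100a8 stretch held the PU.1 core at -170 to -165 and at -36 to -31, the second directly before a TATA box at -30 to -25 from the start. The Vim stretch held the PU.1 core at -155 to -150 and at -118 to -113 and a TATA box at -32 to -27, and the Il1b stretch held a TATA box at -31 to -26. The stretches of S100a9 and Lyz2 held none of the motifs. Over stretches of the same length before 32851 RefSeq starts, 19.0% held the PU.1 core, 7.47% C/EBP, 5.48% AP-1 and 9.96% the TATA box, so that a match to one of them is common, and a match is not evidence of binding. All 8 genes were found in the promoter table.

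S100a8 (ENSMUSG00000056054, chromosome 3, 90669071 to 90670034, GRCm38) and S100a9 (ENSMUSG00000056071, chromosome 3, 90692630 to 90695721) have starts 26650 bases apart. Levels are given as CPM, the UMIs of a gene per 1000000 nuclear-encoded UMIs of the same nuclei. S100a8 had 33.1 CPM in CKO alveolar nuclei (28.9 to 37.7, from 222 UMIs in 191 nuclei), and no UMI in control alveolar nuclei, where 3 UMIs taken as the upper limit would be 0.497 CPM, so that it was at least 66.5-fold higher in CKO. S100a9 had 57.2 CPM in CKO alveolar nuclei (51.6 to 63.2, from 384 UMIs in 338 nuclei), and no UMI in control alveolar nuclei, and was at least 115.1-fold higher in CKO. Both RNAs were found in AT2-like, transitional-like and AT1-like nuclei of the CKO library, and with 4 UMIs each in the cycling epithelial nuclei. For S100a8 the levels were 45.8 CPM in transitional-like, 30.9 CPM in AT2-like and 25.4 CPM in AT1-like nuclei, with transitional-like above AT1-like by 1.80-fold and the interval of that ratio clear of 1. For S100a9 they were 70.6, 53.9 and 51.9 CPM in the same order. Median depths were 2055.5 UMIs in transitional-like, 2227 in AT2-like and 3534 in AT1-like nuclei. In that order, the shares of nuclei with a UMI were 9.22%, 7.29% and 8.90% for S100a8. The S100a9 shares were 14.8%, 12.9% and 17.8%. Thinned to equal depth, the shares were 4.87%, 3.65% and 2.75% for S100a8 and 7.29%, 5.89% and 6.14% for S100a9. The part of depth in these differences was not tested. The highest count of S100a9 in any alveolar nucleus was 3 UMIs, against 37 UMIs in a neutrophil-like nucleus.

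In CKO neutrophil-like nuclei S100a8 reached 700 CPM and S100a9 reached 1186 CPM, so that the alveolar levels were 21.2-fold and 20.7-fold lower. Macrophage/monocyte-like nuclei had 77.5 CPM of S100a8 and 116 CPM of S100a9. T and NK cell-like nuclei, which should make neither, had 59.98 CPM of S100a8 and 110 CPM of S100a9, above the alveolar level of the same library (log2 alveolar over T and NK cell -0.86, -1.31 to -0.38, for S100a8 and -0.94, -1.28 to -0.59, for S100a9). Nuclei with at least 1 UMI made up 191 of 2333 alveolar (8.19%) and 42 of 350 T and NK cell-like nuclei for S100a8, and 14.5% of alveolar and 19.1% of T and NK cell-like nuclei for S100a9, at median depths of 2402 and 1543.5 UMIs per nucleus. After each nucleus was thinned to 1000 UMIs the shares were 3.76% and 6.65% for S100a8 and 6.31% and 10.9% for S100a9. The alveolar shares lay below those of T and NK cell-like nuclei, but other classes differed. In S100a8 and S100a9 order, thinned shares were 7.40% and 10.7% in endothelial-like and 9.70% and 11.2% in B cell and plasma cell-like nuclei. They were 3.26% and 5.49% in ciliated-like and 3.04% and 4.72% in fibroblast-like nuclei, below the alveolar shares. These classes held 128, 60, 57 and 58 nuclei. The source of the UMIs was not tested.

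**Figure D1:**
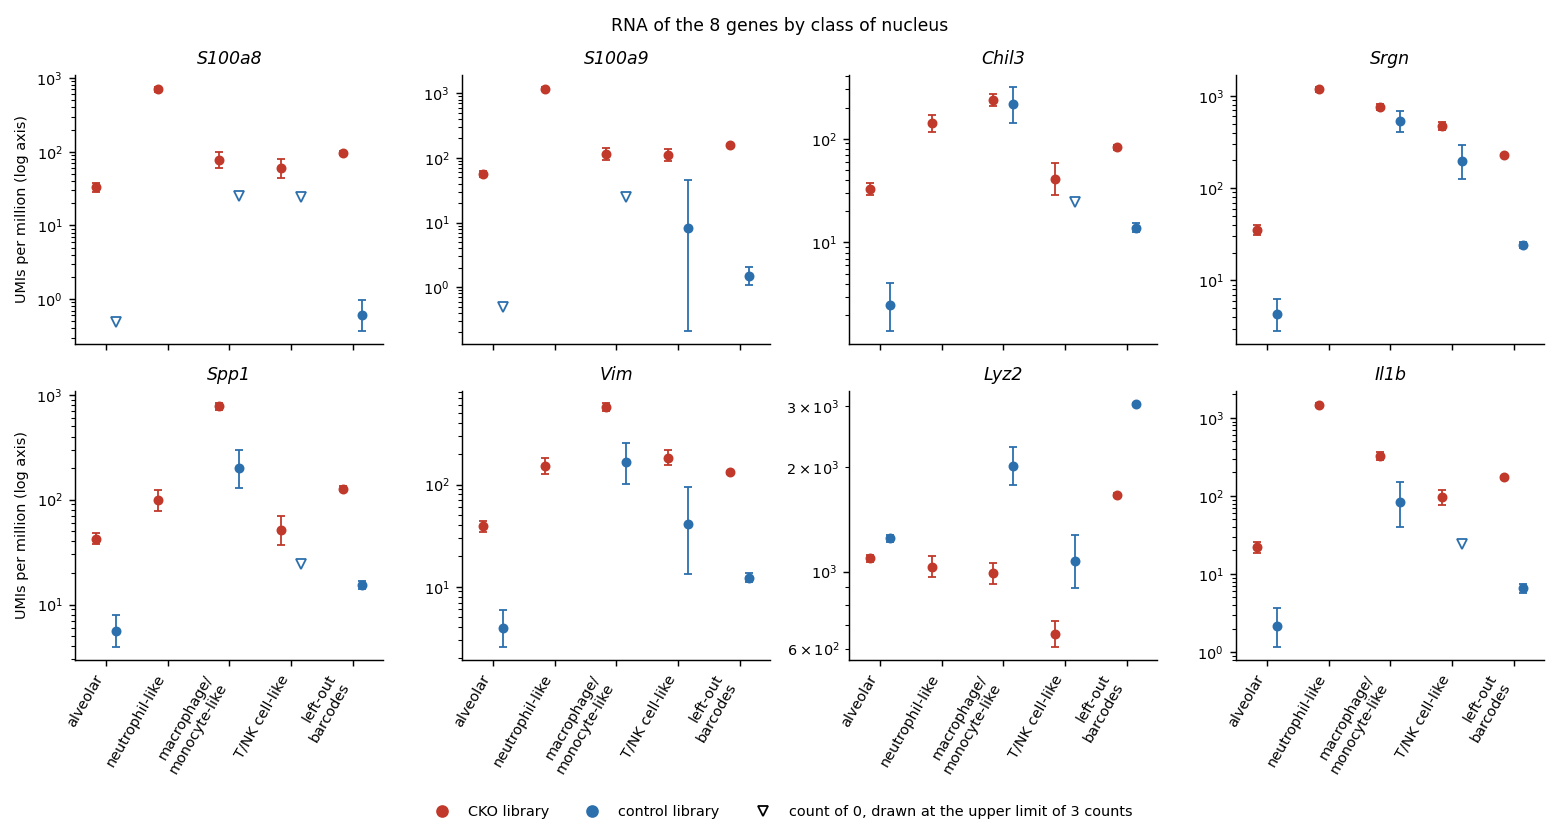
RNA of each gene (CPM of nuclear-encoded UMIs, log axis) by class of nucleus and library. Points are sums over all nuclei of a class in 1 library, bars are 95% Poisson intervals, open triangles mark a count of 0 at its upper limit (3 counts), and classes under 20 nuclei are not drawn. S100a8 stood at 33.1 in CKO alveolar nuclei, below 59.98 in T and NK cell-like nuclei, while Lyz2 stood at 1093 in CKO and 1247 in control alveolar nuclei.

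Chromatin at the calprotectin genes was counted in peaks within 10 kb of the gene start, per 1000000 peak counts of the same nuclei (peak CPM). Peak counts are transposition events that often come in pairs from 1 fragment, so their intervals are too narrow and the number of nuclei is given where counts are few. Around S100a9, CKO alveolar nuclei had 1.59 peak CPM (0.94 to 2.51, 18 counts in 10 nuclei), neutrophil-like nuclei 32.6, macrophage/monocyte-like nuclei 2.60 and T and NK cell-like nuclei 1.33. The alveolar rate was thus 20.6-fold below the neutrophil-like rate and did not differ beyond counting error from that of T and NK cell-like nuclei (log2 0.25, with 2 T and NK cell counts in 1 nucleus). No control peak lay in the S100a9 window, so no control rate exists. Around S100a8, CKO alveolar nuclei had 4.67 peak CPM, neutrophil-like nuclei 23.5 and T and NK cell-like nuclei 5.34. Of the 53 alveolar counts, 31 fell in an upstream peak (chr3:90663936-90664812) and 9 in the peak over the start (chr3:90668595-90669494), which covers the stretch shown above. That start peak had 0.793 peak CPM in alveolar, 16.03 in neutrophil-like, 10.4 in macrophage/monocyte-like and 1.33 in T and NK cell-like nuclei. The peak over the S100a9 stretch had 0.881 peak CPM in alveolar, 15.5 in neutrophil-like and 1.30 in macrophage/monocyte-like nuclei.

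Il1b (ENSMUSG00000027398, chromosome 2, 129364569 to 129371164) had the lowest alveolar level relative to myeloid nuclei. It had 22.0 CPM in CKO alveolar nuclei (18.6 to 25.9, from 148 UMIs in 122 nuclei), and 2.15 CPM in control alveolar nuclei (13 UMIs), a log2 ratio of 3.36 (2.54 to 4.30). Neutrophil-like nuclei of the CKO library had 1475 CPM, macrophage/monocyte-like nuclei 326 CPM and T and NK cell-like nuclei 96.2 CPM. Within the CKO alveolar nuclei the order was AT1-like (31.1 CPM), transitional-like (22.3 CPM) and AT2-like (16.6 CPM), and only AT2-like and AT1-like differed beyond counting error (log2 AT2-like over AT1-like -0.91, -1.47 to -0.35). Of the 60 UMIs in AT1-like nuclei, up to 7 came from 1 nucleus. The 6 CKO alveolar nuclei with 3 or more Il1b UMIs were all AT1-like, so the interval, which takes UMIs as independent, is too narrow. Thinned to 1000 UMIs, the shares of nuclei with a UMI were 2.70% in AT1-like, 2.23% in transitional-like and 2.04% in AT2-like nuclei. The share of nuclei with a UMI, thinned to 1000 UMIs, was 2.23% in alveolar and 8.07% in T and NK cell-like nuclei.

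Chromatin around Il1b was 3.17 peak CPM in CKO alveolar nuclei (36 counts), 123 in neutrophil-like, 106 in macrophage/monocyte-like and 14.7 in T and NK cell-like nuclei, a 38.9-fold difference between alveolar and neutrophil-like nuclei. The peak over the Il1b stretch shown above had 1.41 peak CPM in alveolar, 31.0 in neutrophil-like and 19.5 in macrophage/monocyte-like nuclei. The start of Il1bos, an antisense gene, lies in the same window, and the strand setting of the counting is not stated, so UMIs of the pair may not be separable. In control alveolar nuclei the window had 1.26 peak CPM, with no control peak at the start.

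**Figure D2:**
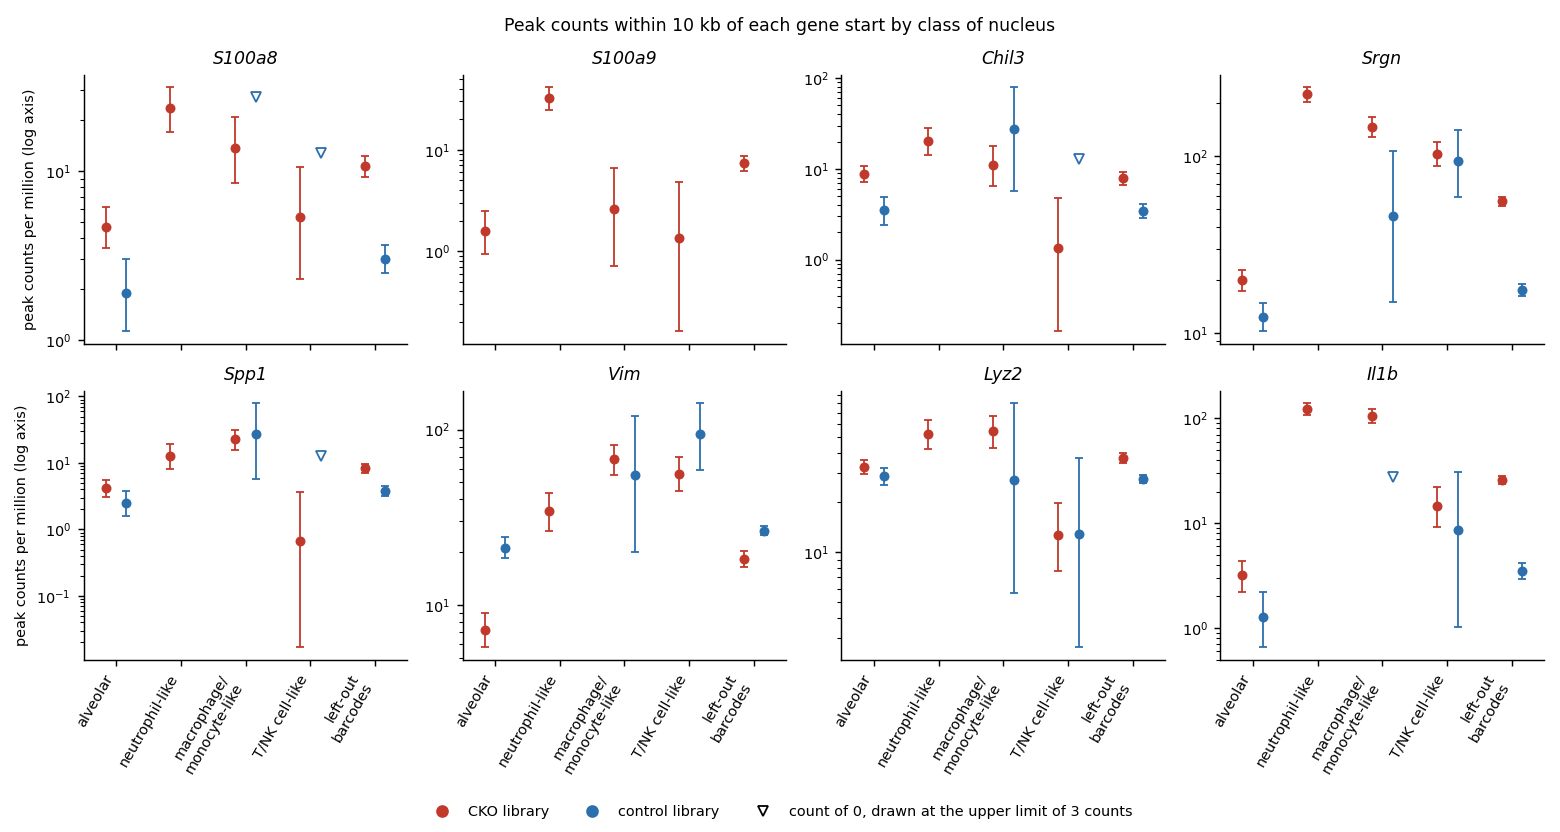
Peak counts within 10 kb of each gene start (peak CPM, log axis), by class of nucleus and library, with 95% Poisson intervals and open triangles for counts of 0 at the upper limit of 3 counts. No control points are drawn for S100a9, which had no control peak in its window. Il1b stood at 3.17 in CKO alveolar nuclei and at 123 in neutrophil-like nuclei.

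Srgn (ENSMUSG00000020077, chromosome 10, 62493833 to 62527445) had 35.3 CPM in CKO alveolar nuclei (30.9 to 40.1, from 237 UMIs in 208 nuclei), and 4.31 CPM in control alveolar nuclei (26 UMIs), a log2 ratio of 3.04 (2.45 to 3.68). The label of a myeloid transcript fits it only in part, because lymphocytes also make serglycin. In the CKO library neutrophil-like nuclei had 1180 CPM, macrophage/monocyte-like nuclei 760 CPM and T and NK cell-like nuclei 476 CPM. Ciliated-like nuclei, 57 airway epithelial nuclei, had 47.8 CPM, and their share with a UMI after thinning was 5.49%, against 3.82% in alveolar nuclei. Its chromatin window, which spans several annotated starts, had 19.8 peak CPM in CKO alveolar nuclei, 226 in neutrophil-like, 147 in macrophage/monocyte-like and 103 in T and NK cell-like nuclei. Of the 225 alveolar counts, 97 lay in a single peak towards the end of the gene (chr10:62499921-62500815), where alveolar nuclei had 8.55 peak CPM and neutrophil-like nuclei 17.1. At the peak around the inner start (chr10:62507430-62508333) alveolar nuclei had 2.73 peak CPM and neutrophil-like nuclei 71.6.

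Spp1 (ENSMUSG00000029304, chromosome 5, 104435111 to 104441053) had 42.6 CPM in CKO alveolar nuclei (37.8 to 47.8, from 286 UMIs in 264 nuclei), and 5.63 CPM in control alveolar nuclei (34 UMIs), a log2 ratio of 2.92 (2.40 to 3.48). Its highest CKO level among the classes named here was 777 CPM, in macrophage/monocyte-like nuclei, where 145 of 652 UMIs came from 1 nucleus. Neutrophil-like nuclei had 98.4 CPM and T and NK cell-like nuclei 51.2 CPM. The alveolar level did not differ beyond counting error from the T and NK cell level (log2 -0.27, -0.74 to 0.24), and the thinned shares were 5.00% in alveolar and 4.79% in T and NK cell-like nuclei. Chromatin around Spp1 was 4.23 peak CPM in CKO alveolar, 12.8 in neutrophil-like and 22.8 in macrophage/monocyte-like nuclei, and T and NK cell-like nuclei had a single count. Of the 48 alveolar counts, 33 lay in a peak beyond the end of the gene (chr5:104445951-104446804). The peak over the Spp1 start held 3 alveolar counts, or 0.264 peak CPM, against 9.75 peak CPM in macrophage/monocyte-like and 6.41 in neutrophil-like nuclei.

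Chil3 (ENSMUSG00000040809, chromosome 3, 106147554 to 106167564) had 33.1 CPM in CKO alveolar nuclei (28.9 to 37.7, from 222 UMIs in 191 nuclei), and 2.48 CPM in control alveolar nuclei (15 UMIs in 11 nuclei), a log2 ratio of 3.73 (2.98 to 4.60). One alveolar nucleus, which was AT2-like, held 13 of the 222 UMIs, and no other CKO AT2-like nucleus held 3 or more. The 33 CKO nuclei of a shallow AT2-like cluster had 379 CPM, which rests on few UMIs and may include those of that nucleus. Macrophage/monocyte-like nuclei had 237 CPM, neutrophil-like nuclei 141 CPM and T and NK cell-like nuclei 41.2 CPM, and the last did not differ from the alveolar level beyond counting error (log2 alveolar over T and NK cell -0.32, -0.85 to 0.26). In the 22 control macrophage/monocyte-like nuclei Chil3 had 217 CPM, close to the CKO macrophages, while S100a8 and S100a9 had no UMI there (upper limit of 3 UMIs, 24.98 CPM). CKO ciliated-like nuclei had 16.9 CPM of Chil3, from 6 UMIs in 2 of 57 nuclei. Reads of Chil3 may be shared with its near-identical relatives. Its relative Chil4 had 5 UMIs in CKO and 3 UMIs in control alveolar nuclei.

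Chromatin around Chil3 was closer to the myeloid level than that around the other genes with low alveolar RNA. CKO alveolar nuclei had 8.81 peak CPM (7.17 to 10.7, 100 counts), against 20.3 in neutrophil-like, 11.1 in macrophage/monocyte-like and 1.33 in T and NK cell-like nuclei. The alveolar rate was 6.60-fold above that of T and NK cell-like nuclei (log2 2.72, 0.83 to 5.79), which rests on 2 counts in 1 T and NK cell-like nucleus, under the limit of 3 counts (2.00 peak CPM). It did not differ beyond counting error from that of macrophage/monocyte-like nuclei (log2 -0.33, -1.08 to 0.51). It was higher in AT2-like nuclei (12.6 peak CPM) than in transitional-like nuclei (3.62 peak CPM, log2 1.80, 0.85 to 2.92) and AT1-like nuclei (4.54 peak CPM, log2 1.48, 0.56 to 2.54). The RNA did not follow that order, with 37.5 CPM in transitional-like, 37.3 CPM in AT2-like and 23.3 CPM in AT1-like nuclei. The counts lay in 2 upstream peaks (chr3:106170387-106171285 and chr3:106174754-106175644), with no peak over the gene start. In the control library all 33 alveolar counts in the Chil3 window came from AT2-like nuclei (4.56 peak CPM).

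Lyz2 (ENSMUSG00000069516, chromosome 10, 117277541 to 117282272) was not higher in myeloid than in alveolar nuclei of the CKO library. In the control library alveolar nuclei, at 1247 CPM, were below the 22 macrophage/monocyte-like nuclei, at 2015 CPM. It had 1093 CPM in CKO alveolar nuclei (1069 to 1119) and 1247 CPM in control alveolar nuclei (1219 to 1276), a log2 ratio of -0.19 (-0.24 to -0.14). AT2-like nuclei had the highest level of any CKO class named here, 1648 CPM, against 1032 CPM in neutrophil-like, 988 CPM in macrophage/monocyte-like, 660 CPM in T and NK cell-like, 652 CPM in AT1-like and 537 CPM in transitional-like nuclei. In AT2-like, transitional-like and AT1-like nuclei the CKO level was above the control level: 1648 and 1536 CPM in AT2-like (log2 0.10), 537 and 323 CPM in transitional-like (log2 0.73) and 652 and 506 CPM in AT1-like nuclei (log2 0.37). Cycling epithelial nuclei, 17 in CKO and 23 in control, went the other way, at 902 and 1138 CPM. The lower pooled CKO level went with a smaller share of AT2-like nuclei, 1193 of 2333 in CKO and 1553 of 2062 in control alveolar nuclei. T and NK cell-like nuclei had Lyz2 at 660 CPM in the CKO library and 1073 CPM in the control library.

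Chromatin around Lyz2 was open in alveolar nuclei, at 32.8 peak CPM in the CKO library and 28.9 in the control library, against 51.8 in CKO neutrophil-like, 54.0 in macrophage/monocyte-like and 12.7 in T and NK cell-like nuclei. Within CKO alveolar nuclei it followed the RNA in AT2-like nuclei, with 40.9 peak CPM there, against 26.8 for transitional-like nuclei and 19.8 for AT1-like nuclei. The peak over the Lyz2 stretch shown above had 7.67 peak CPM in CKO and 12.01 in control alveolar nuclei, 17.1 in neutrophil-like nuclei and 2.00 in T and NK cell-like nuclei. Another peak (chr10:117275435-117276259) was higher in alveolar (9.96 peak CPM) than in neutrophil-like nuclei (3.74 peak CPM). Its paralog Lyz1 starts 10596 bases away and may share reads. Lyz1 had 73.4 CPM in CKO and 79.3 CPM in control alveolar nuclei.

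Vim (ENSMUSG00000026728, chromosome 2, 13574311 to 13582826) had 39.3 CPM in CKO alveolar nuclei (34.7 to 44.4, from 264 UMIs in 240 nuclei), and 3.97 CPM in control alveolar nuclei (24 UMIs), a log2 ratio of 3.31 (2.70 to 3.97). Macrophage/monocyte-like nuclei had 578 CPM, T and NK cell-like nuclei 184 CPM and neutrophil-like nuclei 153 CPM, each above the alveolar level. Ciliated-like nuclei had 42.2 CPM (23.6 to 69.6), from 15 UMIs in 5 of 57 nuclei, with 10 of them in 1 nucleus. The thinned shares were 4.42% in alveolar and 4.13% in ciliated-like nuclei. Chromatin and RNA went opposite ways between the libraries: the window had 7.23 peak CPM in CKO alveolar nuclei and 21.3 in control alveolar nuclei, a log2 ratio of -1.56 (-1.95 to -1.18). The CKO peaks covered 1544 bases of the window and the control peaks 1973 bases. Of the control rate, 8.01 and 3.58 peak CPM lay in 2 peaks that no CKO peak overlaps, so these regions were not counted in CKO. A CKO peak that no control peak overlaps had 0.176 peak CPM. Over the stretch shown above lay 1 CKO peak and 2 control peaks, with 7.05 peak CPM in CKO and 17.7 in control alveolar nuclei. Of the control pair, the peak that ends upstream of the RefSeq start (chr2:13573429-13574134) had 9.69 peak CPM and the one that holds it (chr2:13574264-13574868) had 8.01. In regions where peaks of both libraries overlap the log2 ratio was -0.46 (-0.91 to -0.01), and with a window of 50 kb it was -0.36. The CKO peak over the stretch had 52.0 peak CPM in macrophage/monocyte-like, 55.4 in T and NK cell-like and 29.9 in neutrophil-like nuclei.

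**Figure D3:**
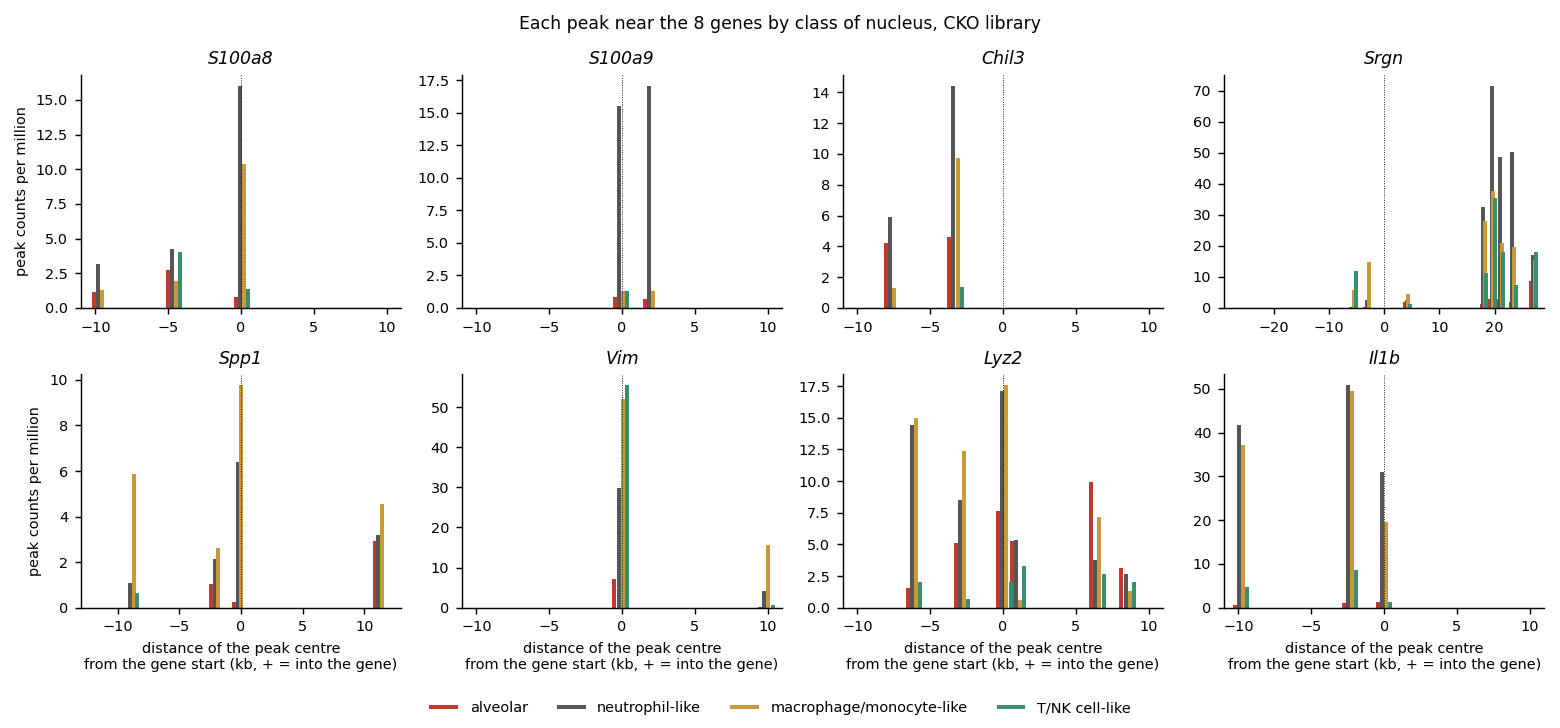
Each CKO peak near the 8 genes, placed by the distance of its centre from the gene start (kb, positive into the gene) and drawn to its peak CPM in 4 classes of nuclei, shown side by side. At the S100a8 start the alveolar line stood at 0.793 and the neutrophil-like line at 16.03, whereas at the Lyz2 start they stood at 7.67 and 17.1.

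Counted over the 8 genes, RNA was at least 2-fold higher in CKO than in control alveolar nuclei for 7, all but Lyz2, where the same held for 17.6% of the 13671 genes with enough UMIs, and nothing is read from it because that contrast chose the genes. The median log2 ratio was 3.33 over the 8 genes (S100a8 and S100a9 at their lower bounds) and 0.47 over all genes tested, and the shift of all genes applies to each ratio above. RNA was at least 2-fold lower in alveolar than in myeloid nuclei of the CKO library for 7 of the 8, again all but Lyz2, and for 11.3% of all genes (median log2 -3.43 against 0.09). Nothing is read from that count either, because the 8 genes are known best from myeloid cells. Peak counts were at least 2-fold lower in alveolar than in myeloid nuclei for 6 of the 8, all but Chil3 and Lyz2, and for 8.1% of all genes (median log2 -2.40 against 0.02). Between the libraries, peak counts in alveolar nuclei were at least 2-fold higher in CKO for 3 of the 7 genes with peaks in both (S100a8, Chil3 and Il1b) and for 5.38% of all genes (median log2 0.74 against 0.001). That count fell to 1 with other regions: Il1b alone with a window of 2 kb or of 50 kb, and Chil3 alone in regions with peaks of both libraries.

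The RNA and chromatin ratios of alveolar over myeloid nuclei were close for 2 genes and apart for others. For S100a9 they were -3.48 by RNA and -3.59 by chromatin, and for Il1b -5.33 and -5.19 (log2). For S100a8 they were -3.52 and -2.03, for Srgn -4.77 and -3.26, for Spp1 -3.39 and -2.03, for Vim -3.24 and -2.77, and for Chil3 -2.53 and -0.87. Lyz2 alone had a positive RNA ratio, 0.12 (0.04 to 0.19), with a chromatin ratio of -0.69 (-0.95 to -0.42).

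**Figure D4:**
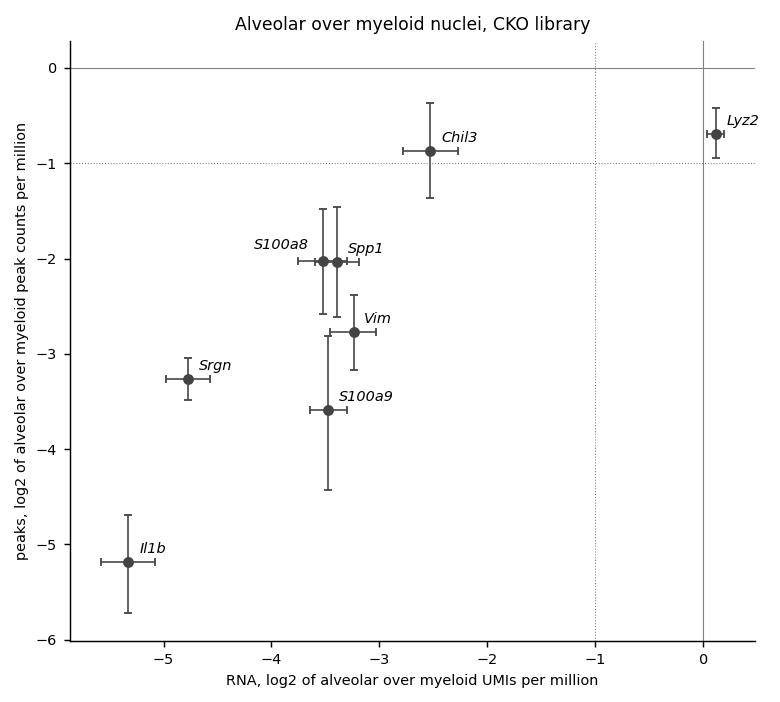
Log2 ratio of alveolar over myeloid nuclei of the CKO library by RNA (CPM, horizontal axis) and by peak counts within 10 kb (peak CPM, vertical axis), with 95% intervals, and dotted lines at a 2-fold lower level. Il1b lay lowest on both axes, at -5.33 and -5.19, and Lyz2 alone lay right of 0 on the RNA axis.

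Against T and NK cell-like nuclei, which serve as a background class for the genes they do not make, none of the 8 was at least 2-fold higher in CKO alveolar nuclei by RNA, where 14.7% of all genes were (median log2 -0.90 for the 8 genes and 0.01 for all). In the T and NK cell-like nuclei themselves, 6 of the 8 were at least 2-fold higher in the CKO than in the control library (all but Chil3 and Lyz2), against 23.7% of all genes (median log2 1.28 against 0.40, with genes at 0 control UMIs at their lower bounds). S100a9 there had 110 CPM in the CKO library and 8.19 CPM, 1 UMI, in the control library, a log2 ratio of 3.75 (1.23 to 9.07). S100a8 had 59.98 CPM in CKO T and NK cell-like nuclei and 0 UMIs in control ones. Surfactant RNA was found outside the epithelium as well. Sftpb had 3591 CPM in alveolar, 2128 CPM in myeloid and 1788 CPM in T and NK cell-like nuclei of the CKO library, and Sftpc had 120, 55.2 and 47.5 CPM in the same order.

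The same RNAs were found in the barcodes that failed the filters. These barcodes are a mixture that can hold myeloid nuclei. With only minimal filters 2322 CKO and 347 control nuclei were myeloid-like, against 805 and 23 with the filters used. In left-out CKO barcodes S100a8 had 96.6 CPM and S100a9 157 CPM, and in left-out control barcodes they had 0.617 and 1.51 CPM. The ratio of S100a8 to S100a9 UMIs in the CKO library was 0.578 (0.488 to 0.684) in alveolar, 0.590 in neutrophil-like, 0.670 in macrophage/monocyte-like nuclei, 0.614 in left-out barcodes and 0.546 in T and NK cell-like nuclei. In classes with fewer UMIs it ran from 0.391 (0.159 to 0.878) in ciliated-like nuclei, with 9 and 23 UMIs, to 1.33 (0.649 to 2.80) in B cell and plasma cell-like nuclei, with 20 and 15 UMIs. Other pairs differed between alveolar and neutrophil-like nuclei beyond counting error. Il1b per S100a9 was 0.385 (0.317 to 0.467) in alveolar, 1.24 in neutrophil-like nuclei, 1.10 in left-out barcodes and 0.875 in T and NK cell-like nuclei. Spp1 per S100a9 was 0.745 (0.637 to 0.870) in alveolar, 0.083 in neutrophil-like, 6.72 in macrophage/monocyte-like and 0.466 in T and NK cell-like nuclei, with 0.812 in left-out barcodes. Chil3 per S100a9 was 0.578 in alveolar, 0.119 in neutrophil-like and 2.05 in macrophage/monocyte-like nuclei, 0.527 in left-out barcodes and 0.375 in T and NK cell-like nuclei. Srgn per S100a9 was 0.617 in alveolar and 0.995 in neutrophil-like nuclei, 1.45 in left-out barcodes and 4.33 in T and NK cell-like nuclei. Vim per S100a9 was 0.688 in alveolar and 0.129 in neutrophil-like nuclei.

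Leaving Lyz2 aside, 1116 of 2333 CKO alveolar nuclei (47.8%) held at least 1 UMI of the other 7 genes, and 72 (3.09%) held UMIs of 3 or more of them. In the control library 86 of 2062 alveolar nuclei (4.17%) held any, and 1 nucleus held 3. Among CKO T and NK cell-like nuclei 75.7% held at least 1 and 17.4% held 3 or more, and among neutrophil-like nuclei 97.3% and 67.3%. S100a8 was found in 13.6% of alveolar nuclei with an S100a9 UMI and in 7.27% of those without. The same shares were 62.0% and 29.8% in neutrophil-like nuclei, and 19.4% and 10.3% in T and NK cell-like nuclei.

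Alveolar nuclei with a UMI of a gene were then set against those without, by the chromatin around that gene. The rate was at least 2-fold higher with a UMI for 4 of the 8 genes in the CKO library. The share over all genes was not computed for this contrast, so nothing is read from that count. For Il1b it was 24.4 peak CPM in the 122 nuclei with a UMI (16 counts in 7 nuclei) and 1.87 peak CPM in the 2211 without, a 13.1-fold difference (log2 3.71, 2.66 to 4.73). For Srgn it was 47.5 peak CPM with and 17.1 peak CPM without a UMI (log2 1.47, 0.98 to 1.94). For S100a8 it was 9.59 peak CPM with (9 counts in 4 nuclei) and 4.23 without, and for S100a9 3.71 with (6 counts in 3 nuclei) and 1.23 without, and both intervals of the ratio reached below 1. Chil3 (10.98 with and 8.62 without), Spp1 (3.12 and 4.37) and Vim (6.93 and 7.26) showed no difference beyond counting error. For Lyz2 the rates were 35.4 with and 23.2 without a UMI (log2 0.61, 0.20 to 1.04). The Il1b window of CKO T and NK cell-like nuclei had 50.1 peak CPM with a UMI (12 counts in 7 nuclei) and 7.94 without. That log2 ratio was 2.66 (1.32 to 4.03). The log2 ratio for Srgn there was 0.74 (0.24 to 1.26), and S100a8, Vim and Lyz2 showed no difference beyond counting error. The Il1b window of control alveolar nuclei had 85.6 peak CPM with a UMI (4 counts in 2 nuclei) and 0.847 without. Chil3, Srgn and Spp1 had 0 counts in control alveolar nuclei with a UMI.

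**Figure D5:**
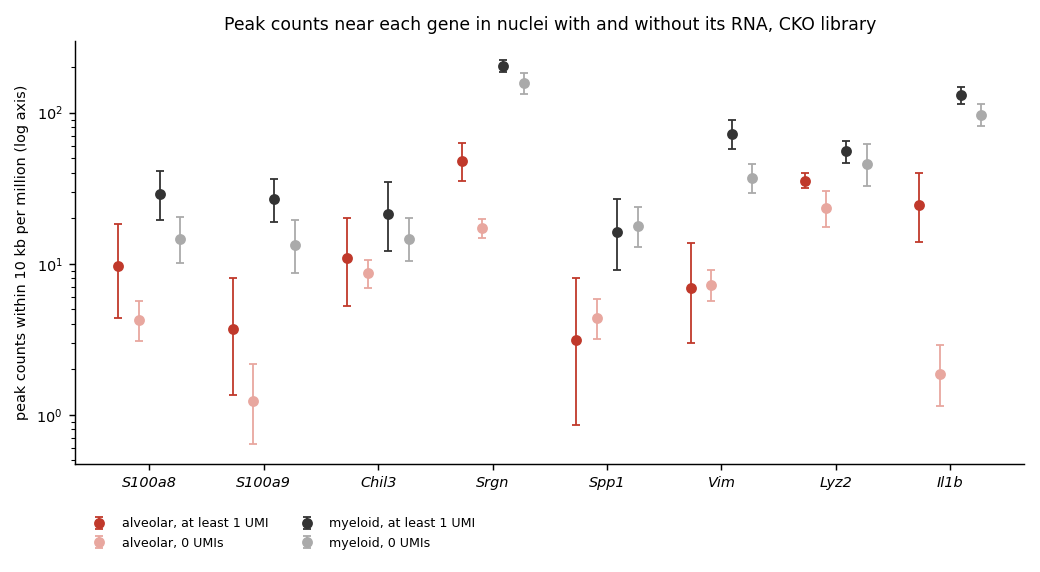
Peak counts within 10 kb of each gene start (peak CPM, log axis) in CKO alveolar and myeloid nuclei with at least 1 UMI of that gene and with 0 UMIs, with 95% Poisson intervals. For Il1b the alveolar values were 24.4 with and 1.87 without a UMI, and the myeloid values stood above both.

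Leukocyte RNA also differed between CKO alveolar nuclei with and without a UMI. Those with an Il1b UMI had 403 CPM summed over 12 pan-leukocyte genes and 292 CPM summed over 13 neutrophil genes, and those without had 254 and 94.9 CPM. The median depth was 3121.5 UMIs with an Il1b UMI and 2378 UMIs without. For Srgn the 2 sums were 422 and 213 CPM with a UMI and 246 and 95.8 CPM without. For S100a8 they were 408 and 212 CPM with and 249 and 97.1 CPM without. For Spp1 they were closer, at 276 and 107 CPM with and 262 and 107 CPM without. Of the 13 neutrophil genes, Ly6g was at 0 in CKO alveolar nuclei, and Retnlg, Mmp8 and Camp were at 0 in control ones. The summed level ran from 86.5 to 121 CPM over the CKO AT2-like, transitional-like and AT1-like nuclei and from 14.1 to 81.3 CPM over the control ones. Much of that sum was 1 gene, Hdc, which did not differ between the libraries. Hdc had 60.9 of the summed 107 CPM in CKO alveolar nuclei and 61.3 of 64.9 CPM in control ones. The part of these leukocyte transcripts, or of 2 nuclei under 1 barcode, in the Il1b and Srgn results was not tested.

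Among the 1340 CKO alveolar nuclei with no UMI of the 12 pan-leukocyte genes, RNA of the 8 genes was found at similar levels. For the chromatin difference at Il1b they are a small set, because only 57 of them held an Il1b UMI. S100a8 had 29.6 CPM, S100a9 61.4 CPM, Chil3 29.6 CPM, Srgn 32.3 CPM, Spp1 51.8 CPM, Vim 42.2 CPM, Lyz2 1099 CPM and Il1b 18.6 CPM there. The 57 nuclei with an Il1b UMI had 0 peak counts in the Il1b window, and the others of the 1340 had 8 counts (1.33 peak CPM). All 16 Il1b window counts of CKO alveolar nuclei with an Il1b UMI thus lay in nuclei that also held a pan-leukocyte UMI. The Srgn window had 11.3 peak CPM in those of the 1340 with an Srgn UMI (5 counts) and 14.5 in those without. Among all CKO alveolar nuclei with an Srgn UMI that window held 48 counts. The reason was not tested. In control alveolar nuclei with no UMI of the 12 genes, the 6 with an Il1b UMI had 2 counts in the Il1b window. The others had 0. Across all CKO alveolar nuclei Lcp1 had 108 of the 263 CPM summed over the 12 genes, and across control ones 102.5 of 164 CPM. In the 2006 CKO alveolar nuclei with fewer peak counts near pan-leukocyte genes than near AT2 and AT1 genes, S100a8 had 29.7 CPM, S100a9 55.8 CPM and Il1b 20.6 CPM. There the Il1b window still had 16.3 peak CPM with and 1.91 peak CPM without a UMI.

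Lists of genes related to the 8 by cell type or pathway were described over CKO and control alveolar nuclei, by the number of members at least 2-fold higher or lower in CKO among those with at least 20 UMIs, beside a background of 17.6% of all genes higher and a median log2 of 0.47. Of the neutrophil genes 6 of 7 were higher and none lower (median log2 3.85, that of Retnlg at its lower bound), among them Csf3r, the G-CSF receptor, with 8.79 CPM in CKO and 0.166 CPM, 1 UMI, in control alveolar nuclei (log2 5.73, 3.20 to 11.1). Il1r2, the IL-1 decoy receptor, had 14.3 and 0.497 CPM (3 UMIs in control, log2 4.85, 3.26 to 7.15), Trem1, a receptor that amplifies myeloid activation, had a log2 ratio of 2.37, and Hdc, histidine decarboxylase, had 60.9 and 61.3 CPM. Of 10 neutrophil granule proteins only 2 had enough UMIs, Lcn2 (log2 0.25), which injured epithelium also makes, and Prtn3 (log2 -1.02). Elane was at 0 UMIs in both libraries and Mpo at 0 in the CKO library, as in CKO neutrophil-like nuclei.

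Of the pan-leukocyte genes 8 of 12 were higher (median log2 1.79), with Ptprc (CD45) at 26.4 CPM in CKO and 8.12 CPM in control alveolar nuclei, Coro1a, a leukocyte actin-binding protein, at a log2 ratio of 3.52, and Lcp1 (L-plastin) at 0.08. Cyth4 had 27 UMIs in CKO and 1 UMI in control alveolar nuclei, and Dock2 a ratio of 0.62. Of the monocyte and recruited macrophage genes 7 of 16 were higher and 2 lower (median 0.76). There the complement genes C1qc (5.02) and C1qb (3.82) were the highest, and the receptors Cx3cr1 (-1.11) and Csf1r (-1.36) the lowest. Of the alveolar macrophage genes 3 of 8 were higher and 2 lower (median 0.49). Marco, a scavenger receptor, had 19 UMIs in CKO and 1 UMI in control alveolar nuclei, Mrc1, the mannose receptor, a ratio of 1.87, Ctsk, cathepsin K, -1.45 and Ear1 -1.67.

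Of the S100 family 6 of 10 were higher (median 1.13). S100a6 had 291 CPM in CKO and 83.0 CPM in control alveolar nuclei (log2 1.81), S100a4 39 and 2 UMIs (log2 4.13, 2.18 to 7.23), and S100g, a calcium carrier, 0.39, while S100pbp, listed with them but encoding a binding partner, had -0.78. Of 6 receptors of calprotectin only Cd33, a myeloid receptor, was higher (25 and 2 UMIs), and Tlr4 (0.30), Cd36 (0.85) and Emb (-0.31) were not. Of the IL-1 pathway 3 of 13 were higher and none lower (median 0.66). Il1rn, the receptor antagonist, had 97 UMIs in CKO and 1 UMI in control alveolar nuclei, while Il1rap, the receptor's accessory chain, had a ratio of -0.14 and Il18 of -0.67. Of the 9 osteopontin receptors 1 was higher, Itgb6 (1.09), the epithelial integrin chain, with Itgb1 at 0.77, Itga5 at -0.41 and Itgav at -0.47 (median 0.13).

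Of the chitinase family 1 of 3 was higher, Chia1, the acidic chitinase (46.3 CPM in CKO and 14.9 CPM in control alveolar nuclei), with Chit1 at 0.09 and Chil1 at -0.32. Of the lysozyme family only Lyz1 had enough UMIs (-0.11). Of the intermediate filaments 4 of 8 were higher (median 0.77), led by Krt19 (1.496) and Nes, nestin (1.17, from 15 UMIs in CKO and 6 UMIs in control), with Krt18 at 0.09 and Lmna at -0.07. Of the mesenchymal genes 6 of 8 were higher (median 1.29), with Col3a1 at 35 UMIs in CKO and 1 UMI in control alveolar nuclei, Fn1 (fibronectin) at 0.37 and Zeb1 at 0.08. Of the serglycin-bound granule proteases only Prtn3 had enough UMIs.

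By level over 15 combinations of class and library, the genes most like each of the 8 differed between Lyz2 and the rest. Pearson's r of log2 CPM, given as a description over points that share libraries and depth, was highest for Sftpa1 (0.944), Napsa (0.913) and Lamp3 (0.907), all AT2 genes, in the case of Lyz2. For Il1b it was highest for Csf3r (0.975), Clec4d (0.971) and Slfn4 (0.967), and for S100a9 for Wfdc17 (0.938), Il1rn (0.936) and Gnb2 (0.933). S100a8 was closest to Ppp1ca (0.970), Wfdc17 (0.957) and Acod1 (0.953), and Chil3 to Ppp1ca (0.961), Ccl6 (0.958) and Wfdc17 (0.954). Srgn was closest to Sla (0.965), Rac2 (0.961) and Cd53 (0.954), and Vim to S100a4 (0.945), Fkbp5 (0.916) and Klf13 (0.913). Among the genes most like Spp1 were Saa3 (0.921) and Fth1 (0.898).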

How the data were processed

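The values used were raw counts as deposited by the authors, namely UMIs of 31053 genes and peak counts of transposition events. Per the file headers they came from Cell Ranger ARC 2.0.1. Signac 1.6.0, Seurat 4.1.0 and the builds GRCm39 and GRCm38 are named in the submitters' processing notes. Gene starts in the files match GRCm38 in the RefSeq table, and 30934 gene IDs matched a symbol.

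Kept nuclei had under 20% mitochondrial UMIs, 1000 to 100000 peak counts, 500 to 25000 UMIs and no fewer than 300 genes. They were clustered on 2000 variable genes without the 8 genes (30 principal components, 15 neighbours, Leiden resolution 0.6) and named from 16 marker lists, where the score reached 0.3 and 3 or more markers were detected. Doublets were kept.

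UMIs were summed per class and library as CPM of nuclear-encoded UMIs. Ratios carry exact conditional-binomial, shares Clopper-Pearson and counts Poisson 95% intervals, and a count of 0 uses a floor of 3. Log2 ratios of all genes needed 20 UMIs or peak counts in the 2 groups together. Peak windows reach 10 kb either side of the gene start in the files. Each library has its own peak list. The calculations were tested on simulated data. Alternatives changed filters, clustering, doublets, windows, regions, scaling and thinning.

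The genes and lists were chosen with earlier results of these data known. Named genes are the 8, the 3 most alike for each (log2(CPM + 1), genes with at least 100 UMIs; 1 of them is not reported here), the 2 highest and 2 lowest of each list, and Ptgir, Ptprc, Csf3r, Mrc1, Marco, Sftpb, Sftpc, Lyz1, Chil4 and Gm42418. The neutrophil and granule genes given at 0 were named after their values were seen. Calculations used scanpy 1.11.5, leidenalg 0.10.2, igraph 0.11.9, scikit-learn 1.9.0, scipy 1.17.1, numpy 2.4.6, pandas 2.3.3 and matplotlib 3.10.9 in Python 3.11.15.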

Additional observations from a re-analysis of the deposited data

Results flagged for a closer look

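RNA of 7 of the 8 genes was above the control level also in the barcodes that failed the filters, which were given no cell class. They numbered 7042 in the CKO and 11384 in the control library, 1 library each, and the difference was not tested. The log2 ratio of CKO over control in these barcodes was 7.29 for S100a8, 6.70 for S100a9, 4.73 for Il1b, 3.42 for Vim, 3.24 for Srgn, 3.05 for Spp1 and 2.57 for Chil3. Lyz2 went the other way there, at 1662 CPM in CKO and 3041 CPM in control barcodes.

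Lyz2 moved in opposite directions in different classes of kept nuclei. Its log2 ratio of CKO over control was 0.73 in transitional-like, 0.37 in AT1-like, 0.10 in AT2-like and -0.70 in T and NK cell-like nuclei. With 1 library per genotype the difference between classes was not tested.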

How the results depend on the processing

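No paired analysis was possible because each genotype has 1 joint library. For the same reason no library could be left out. Of 67 recomputed counts over the 8 genes, 57 stayed within 1.5 times the value reported. RNA at least 2-fold higher in CKO alveolar nuclei, and RNA or peak counts at least 2-fold lower in alveolar than in myeloid nuclei, were among those under every alternative run. Genes with peak counts at least 2-fold higher in CKO than in control alveolar nuclei numbered 3, and 1 with a window of 2 kb, with a window of 50 kb, or in regions with peaks of both libraries. Genes with a thinned share higher in alveolar than in T and NK cell-like nuclei numbered 2 (Spp1 and Lyz2), and 1 without the 8% of nuclei with the highest Scrublet score or with thinning to 500 UMIs. Genes with at least 2-fold more peak counts in alveolar nuclei with a UMI, a count without a share over all genes beside it, numbered 4. They numbered 2 with only minimal filters, with no mitochondrial limit, in nuclei with no leukocyte UMI, or in shared regions, and 1 with a window of 50 kb. The cause was not tested.

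For single genes 452 values stayed close, 65 moved and 2 turned round. With a window of 50 kb the log2 ratio of Lyz2 peak counts in alveolar over myeloid nuclei was 0.26. In nuclei with no leukocyte UMI the log2 ratio of Srgn peak counts with over without a UMI was -0.36. The log2 ratio of Lyz2 RNA in CKO over control alveolar nuclei ran from -0.98 with minimal filters to -0.04 in nuclei with no leukocyte UMI. Counts of 1 to 20 per class limit the peak rates of S100a9, Spp1 and Il1b, and the 60 control T and NK cell-like nuclei limit that comparison.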
